A study of Mus musculus with 8 samples.

Results

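A set of 10 transcription factor genes that shape dendritic cells was followed in CCL17-positive lymph node cells against CCL17-negative splenic cells: Batf, Batf3, Cebpa and Cebpb of the basic leucine zipper (bZIP) family, Mycl and Myc, the inhibitor Id2, and Zbtb46, Bcl6 and Tcf4. They were taken by name, and all 18 probes that the array's gene table pairs with them were read, out of 45281 probes on the array. A probe counted as detected on an array where its detection p was under 0.01, and it entered the test where it was detected on at least 4 of the 8 arrays. This left 11 of the 18 probes and 8 of the 10 genes, out of 8252 genes tested in all. Cebpa and Myc were not among the 8.

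The cells came from CCL17E/+ mice aged 2 to 5 months on a C57BL/6 background, in which EGFP reports expression of the chemokine gene Ccl17, and every animal had received 100 µg of LPS, a bacterial endotoxin, 15 h earlier. The sort gate took cells positive for CD11c and CD11b and negative for NK1.1 and CD8alpha. From mesenteric and peripheral lymph nodes (LN) the EGFP-positive fraction was kept, and from spleens of the same mice the EGFP-negative fraction, with 4 arrays of each. All animals carry the reporter allele and all were stimulated, and organ and CCL17 status cannot be told apart. How many mice stand behind an array, and whether they were pooled, is not stated in the labels, and p-values therefore cover only the spread among the 8 samples. In sorted bulk samples fewer cells of a type and less RNA per cell cannot be told apart.

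As background, bZIP proteins bind DNA as dimers. Batf and Batf3 lack a transactivation domain of their own and act with Jun and IRF partners. Batf3 is needed for the lineage called cDC1, which includes CD8alpha-positive and CD103-positive cells. C/EBP alpha and C/EBP beta drive myeloid and inflammatory genes. Id2 blocks E proteins such as Tcf4, the factor that maintains plasmacytoid dendritic cells. Zbtb46 marks the classical dendritic cell lineage, Bcl6 is a BTB zinc finger repressor, and dendritic cells are known to switch from Myc to its relative Mycl as they differentiate.

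Promoter sequences from RefSeq (GRCm38.p6) were found for 8 of the 10 genes, and not for Myc and Tcf4. Those shown belong to the factors that differed between the groups, Cebpb and Mycl, to Batf and Batf3, both highest on the same spleen array, and to Bcl6, whose call depended on 1 array. Each line gives the 250 bases before the annotated gene start, 5′ to 3′ on the gene's strand, with matches to the searched letters in capitals.
Cebpb, chr2:167688665-167688914, plus strand: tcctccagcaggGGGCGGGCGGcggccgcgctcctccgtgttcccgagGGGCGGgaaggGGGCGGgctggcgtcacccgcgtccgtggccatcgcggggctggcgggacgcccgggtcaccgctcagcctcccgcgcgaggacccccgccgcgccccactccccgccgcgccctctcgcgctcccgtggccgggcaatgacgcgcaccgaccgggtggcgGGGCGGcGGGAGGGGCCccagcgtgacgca
Mycl, chr4:122995681-122995930, plus strand: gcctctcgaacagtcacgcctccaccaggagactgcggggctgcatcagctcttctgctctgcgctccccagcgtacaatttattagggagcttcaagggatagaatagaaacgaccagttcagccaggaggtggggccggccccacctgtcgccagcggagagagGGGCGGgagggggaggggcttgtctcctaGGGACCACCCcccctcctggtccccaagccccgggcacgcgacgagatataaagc
Batf, chr12:85686470-85686719, plus strand: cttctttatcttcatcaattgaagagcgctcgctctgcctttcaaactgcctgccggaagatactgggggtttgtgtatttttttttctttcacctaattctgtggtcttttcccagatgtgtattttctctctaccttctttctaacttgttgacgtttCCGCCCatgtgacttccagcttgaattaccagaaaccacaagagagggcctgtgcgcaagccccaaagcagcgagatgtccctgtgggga
Batf3, chr1:191098164-191098413, plus strand: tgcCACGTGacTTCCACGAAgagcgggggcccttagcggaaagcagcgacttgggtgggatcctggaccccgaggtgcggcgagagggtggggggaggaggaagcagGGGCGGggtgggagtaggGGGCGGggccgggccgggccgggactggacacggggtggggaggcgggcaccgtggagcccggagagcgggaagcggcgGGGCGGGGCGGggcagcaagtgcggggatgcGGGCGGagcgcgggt
Bcl6, second annotated start, chr16:23981284-23981533, minus strand: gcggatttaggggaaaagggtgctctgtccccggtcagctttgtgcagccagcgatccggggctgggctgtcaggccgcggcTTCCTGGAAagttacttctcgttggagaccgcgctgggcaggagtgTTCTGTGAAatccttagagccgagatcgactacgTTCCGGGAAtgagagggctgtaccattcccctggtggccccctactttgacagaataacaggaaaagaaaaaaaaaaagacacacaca

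For the comparison 8 sets of letters were searched on both strands, each over all 32851 promoters of the table. The SP1-type box GGGCGG stood 5 times before Cebpb and 5 times before Batf3, and 1.933% of all promoters hold it at least 5 times, while Mycl and Batf each held it 1 time, as 32.74% of promoters do at least once. A loose form of the NF-kappaB motif, a GGGA and a CC with 4 free bases between them, is present in 17.63% of promoters. It was found once before Cebpb, where it follows a GGGCGG, and once before Mycl. The Myc and Max E-box CACGTG, in 6.02% of promoters, stood before Batf3 and at the other Bcl6 start. The palindrome TTCNNNGAA, which STAT proteins and Bcl6 itself can bind, stood 3 times before the Bcl6 start shown and once before Batf3. The other Bcl6 start held it 1 time. It is present in 7.02% of promoters, and 9 of them (0.027%) hold it at least 3 times. The cut-offs of 5 and 3 equal the counts found here, so these shares are a description and no test. None of the 5 stretches held the AP-1 letters TGANTCA (6.75% of promoters), the CRE TGACGTCA (1.55%) or the C/EBP letters TTGCNNAA (9.56%). The loose E-box CANNTG, which includes CACGTG and occurs in 66.22% of promoters, is not capitalised. Such matches describe the letters and are no evidence of binding.

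Mean intensity per array lay between 334 and 521 for LN and between 239 and 510 for spleen, and 13743 to 14985 probes were detected per array. Spleen replicate 4 stood apart, with a mean correlation of 0.887 with the other spleen arrays, against 0.941 to 0.951 for the other 3 and at least 0.969 within LN, so the results it touches are given with and without it. The arrays lay on 2 BeadChips, replicates 1 and 2 of each group on the first and replicates 3 and 4 on the second. Ccl17, on whose reporter the cells were sorted, had a log2 intensity of 12.51 ± 0.33 in LN and 6.24 ± 0.50 in spleen (SD, n = 4 each), which checks the labels. Of 14 dendritic cell markers 10 were tested, 1 was lower and 9 were not called, among them Cd74 and H2-Ab1 of the class II pathway. The lower one, Kit (-0.76 ± 0.19, limma adjusted p 0.0239), was not called without LN replicate 1 or 2 or spleen replicate 1 or 3 (limma adjusted p up to 0.0724). H2-Eb1, another class II gene, was called higher with the replicate number as a block and without spleen replicate 4 (limma adjusted p 0.0279 and 0.0433), and Kmo lower without that array (limma adjusted p 0.00708). The gated Itgax (CD11c) reached detection on 3 LN and 3 spleen arrays and Itgam (CD11b) on 1 LN and 0 spleen arrays. Erythroid markers, 5 lower of 5 tested, had a summed signal of 292 to 554 in LN and 5213 to 40126 in spleen. Their part in the results below was not tested.

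Values below are background-corrected, quantile-normalised log2 intensities of the brightest passing probe, and a fold is LN over spleen with its standard error (SE) from a linear model in limma over all 8252 genes. The threshold for a call was 0.05 after Benjamini-Hochberg adjustment. Of the 8 tested factors 2 were called, Cebpb and Mycl, both lower in LN, and 0 were called higher. Over all genes tested 15.6% were called, which splits into 7.59% lower and 7.99% higher in LN. The median log2 fold was -0.27 over the 8 factors and 0.03 over all genes.

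**Figure D1:**
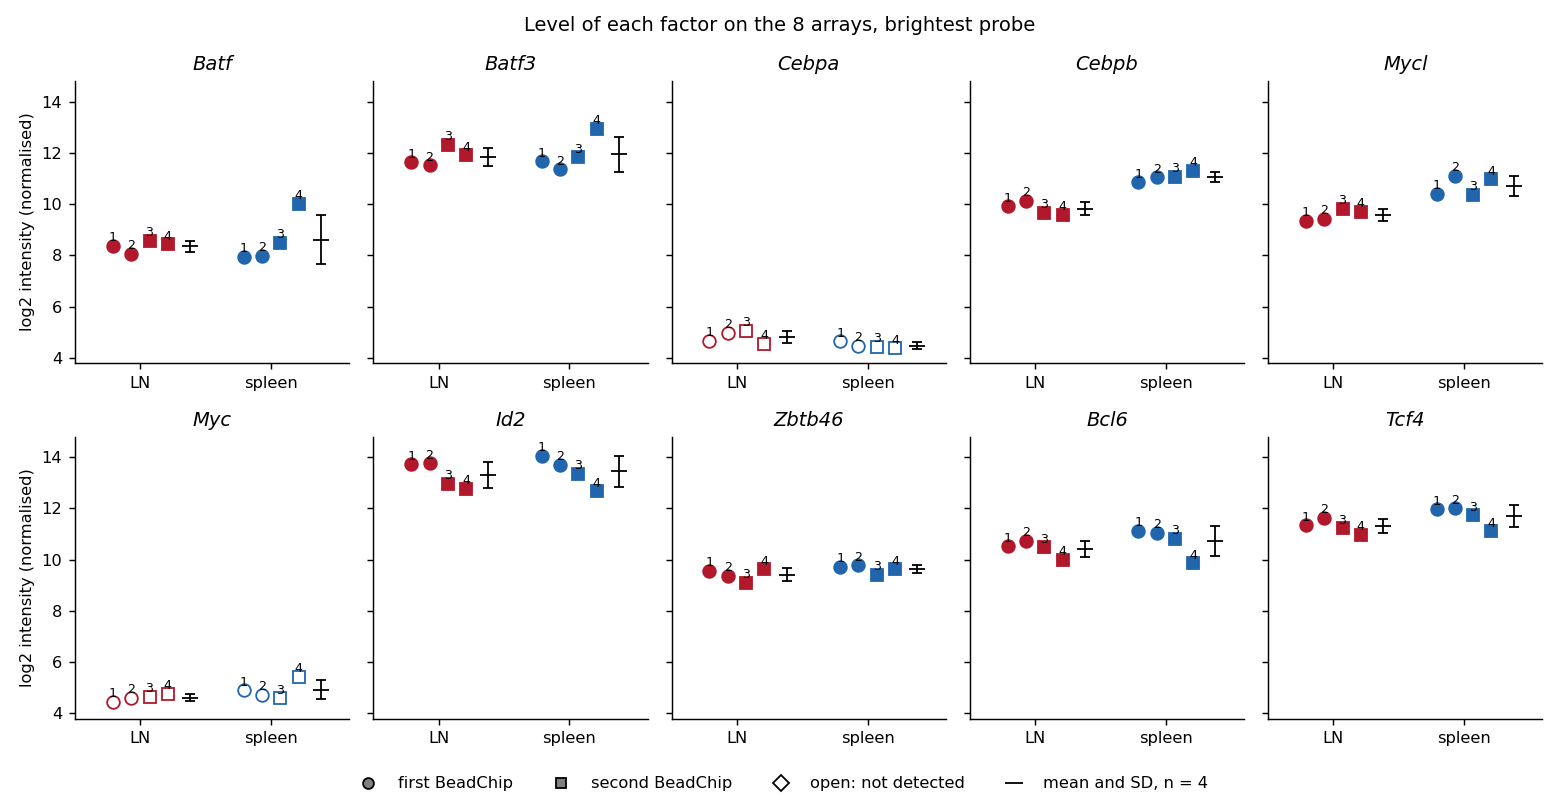
Normalised log2 intensity (vertical axis) of the brightest probe of each of the 10 genes on the 4 LN and 4 spleen arrays. Numbers are replicates, circles the first and squares the second BeadChip, open symbols arrays where the probe was not detected, and bars the mean and SD (n = 4). Cebpb and Mycl are the genes whose groups do not overlap among those detected, Cebpa and Myc are open on all 8 arrays, and spleen replicate 4 lies highest for Batf and Batf3 and lowest for Id2 and Bcl6, and lowest of the spleen arrays for Tcf4.

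Cebpb, which encodes the C/EBP factor of inflammatory myeloid genes, was lower in LN cells. Its log2 intensity was 9.92, 10.13, 9.66 and 9.58 on LN arrays 1 to 4, against 10.86, 11.04, 11.05 and 11.29 on spleen arrays 1 to 4. Every LN value lay below every spleen value, and the gap between the groups exceeded the range within either. The means were 9.82 ± 0.25 in LN and 11.06 ± 0.18 in spleen (SD, n = 4 each), a 2.36-fold lower level in LN (log2 fold -1.24 ± 0.18, limma adjusted p 0.00121, 95% interval -1.65 to -0.83). Within the first BeadChip the fold was -0.93 and within the second it was -1.55, each called (limma adjusted p 0.003 and 0.0436).

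Mycl, the Myc relative of differentiated dendritic cells, was lower in LN cells as well. It read 9.35, 9.42, 9.82 and 9.70 on LN arrays 1 to 4, against 10.39, 11.11, 10.37 and 10.97 on spleen arrays 1 to 4. Again the groups did not overlap, which held for 2 of the 8 factors and for 22.2% of all genes tested. The means were 9.57 ± 0.22 in LN and 10.71 ± 0.39 in spleen (SD, n = 4 each), 2.20-fold lower in LN (log2 fold -1.13 ± 0.22, limma adjusted p 0.00609, 95% interval -1.63 to -0.64). On the first BeadChip the fold was -1.36 (limma adjusted p 0.00284), and on the second it was -0.91 and not called (limma adjusted p 0.252). Cebpb and Mycl stayed called without any 1 array, with limma adjusted p up to 0.00637 and 0.026.

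Both calls depended on the scaling of the arrays. With each array set to a common median in place of common quantiles, Cebpb had a log2 fold of -1.002 (limma adjusted p 0.0519) and Mycl of -0.91 (limma adjusted p 0.0897). That scaling moved the median fold of all genes from 0.03 to 0.24, and relative to this median the folds were -1.24 for Cebpb and -1.14 for Mycl, against -1.27 and -1.16 with quantiles. Of all calls 66.5% were then higher in LN, against 51.3% with quantiles. Relative to the same medians all 8 factors lay below 0 under either scaling, while without that reference the folds of Batf, Batf3, Id2 and Zbtb46 were slightly above 0 under median scaling. As many of all genes lie below a median as above it. Without spleen replicate 4, with quantiles, Batf (0.21) and Batf3 (0.22) lay above the median of all genes (-0.003).

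The genes most like Cebpb and Mycl over the 8 arrays were listed by Pearson's r, as a description of arrays that fall into 2 groups. Closest to Cebpb were Rrp1b (r = 0.990), Emp3 (r = 0.988) and Cst7, a cystatin (r = 0.988), and 88 genes had an r over 0.95. Closest to Mycl were Lsm1 (r = 0.995), whose own fold was small at -0.32, Naa20, a subunit of an N-terminal acetyltransferase (r = 0.971), and Ints4, of the Integrator complex (r = 0.969). Only 11 genes passed an r of 0.95 with Mycl.

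Signals of other myeloid cells were set beside Cebpb, since monocytes, macrophages and neutrophils use C/EBP factors. The summed signal of 11 macrophage and monocyte markers was 2773 to 3848 in LN and 4150 to 5511 in spleen. Spic alone carried that direction, and without it the other 10 markers summed to 2290 to 3207 in LN and 1004 to 1854 in spleen, so that LN was the higher group. Without Lyz2 as well, the next brightest gene, the sums were 1342 to 1623 in LN and 937 to 1547 in spleen, and the groups overlapped. In that list 8 were tested, 1 was higher in LN (Lyz2, lysozyme, log2 fold 3.25 ± 0.48, limma adjusted p 0.00122) and 1 lower (Spic, a factor of splenic iron-recycling macrophages, -2.73 ± 0.19, limma adjusted p 1.42e-05). The complement gene C1qc (1.04 ± 0.33) was called higher as well without spleen replicate 4 and with the replicate number as a block, C1qb without that array and Vcam1 with the block. The macrophage marker Adgre1, which encodes F4/80, had a fold of -0.19 ± 0.18 (limma adjusted p 0.569), and the monocyte receptor Ccr2 was detected on 0 of the 8 arrays. Of 11 neutrophil markers 1 was tested and not called, with a sum of 870 to 2050 in LN and 1315 to 2396 in spleen, and without Lcn2, its brightest gene, of 266 to 295 in LN and 293 to 607 in spleen. Lcn2 was the tested marker, and none of the other 10 passed the filter. The granule genes Ngp and Camp were detected on 0 arrays, and S100a8 and S100a9 on 0 LN and 3 spleen arrays. Their part in the Cebpb difference was not tested.

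Cebpa and Myc, the close relatives of the called factors, were not above background. Cebpa, the C/EBP gene of early myeloid progenitors, was detected on 0 of 8 arrays, with log2 intensities of 4.67, 4.99, 5.05 and 4.55 in LN and 4.65, 4.48, 4.43 and 4.37 in spleen and a lowest detection p of 0.0385 on LN array 3. Myc, the proto-oncogene, has 2 probes and neither was detected on any array. The brighter of them read 4.46 to 4.76 in LN and 4.59 to 5.44 in spleen, with the lowest detection p, 0.0224, on spleen array 4. These values are not above background and carry no fold.

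Batf and Batf3 were detected on every array and not called. Batf, which works with IRF4 and Jun in activated lymphocytes and dendritic cells, read 8.37, 8.06, 8.57 and 8.43 in LN and 7.95, 7.99, 8.50 and 10.01 in spleen. Its log2 fold was -0.25 ± 0.41 (limma adjusted p 0.775, 95% interval -1.17 to 0.66). Spleen replicate 4 alone lay far above the other 7 arrays, and its excess of 1.86 over the mean of the other spleen arrays exceeded that of 98.2% of genes. Without that array the fold was 0.21 ± 0.20 (limma adjusted p 0.487), on the other side of 0. Lymphocyte markers were set beside Batf. Of 11 T cell markers 2 were tested and 1 was higher in LN (Thy1, 2.67 ± 0.30, limma adjusted p 0.000229, detected on 4 LN and 1 spleen arrays). Thy1 met the filter through its LN arrays. Its spleen mean, 5.47, was near the lowest detected level of the spleen arrays (5.46 to 5.63), which limits the size of its fold. The summed signal of the list, 5343 to 8885 in LN and 1649 to 7882 in spleen, was mostly that of the interleukin-7 receptor gene Il7r. Without Il7r the other 10 markers summed to 579 to 674 in LN and 268 to 337 in spleen, and spleen array 4 was the highest of the spleen arrays. Without Thy1 as well the sums were 241 to 411 in LN and 233, 275, 251 and 274 on spleen arrays 1 to 4. The groups then overlapped, and spleen array 4 was no longer the highest. None of the 9 genes left passed the filter, so these sums come mostly from undetected probes and their order carries little. The T cell receptor gene Cd3e was detected on 2 LN and 1 spleen arrays. Of 11 NK cell markers 4 were tested and 1 was called lower in LN, Klra3, an inhibitory receptor (limma adjusted p 0.000711). It was detected on 0 LN and 4 spleen arrays, so it entered the test through spleen alone. Klra3 was not well above background in LN and at least 2.48-fold higher in spleen. The NK cell list summed to 4218 to 6522 in LN and 5115 to 7487 in spleen. Without Prf1, its brightest gene, the sums were 2359 to 2682 in LN and 3137 to 3617 in spleen. Their part in the Batf values was not tested.

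Batf3, required for cDC1, had the same high array. Its brighter probe read 11.63, 11.52, 12.32 and 11.90 in LN and 11.67, 11.36, 11.83 and 12.94 in spleen, and its second probe 9.97, 9.79, 11.28 and 11.08 in LN and 9.999, 9.95, 10.71 and 12.75 in spleen. In these normalised values all arrays of the second BeadChip lay above all arrays of the first on either probe, in LN and in spleen alike. On the brighter probe this order appeared only after normalisation. Its intensities before that were 3937, 3437, 5166 and 2959 in LN and 4209, 3144.5, 3057 and 4018 in spleen, where array 4 was not the highest. The log2 fold was -0.11 ± 0.32 (limma adjusted p 0.88, 95% interval -0.83 to 0.61) on the brighter probe and -0.32 ± 0.59 on the other. Without spleen replicate 4 it was 0.22 ± 0.20 (limma adjusted p 0.461).

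**Figure D2:**
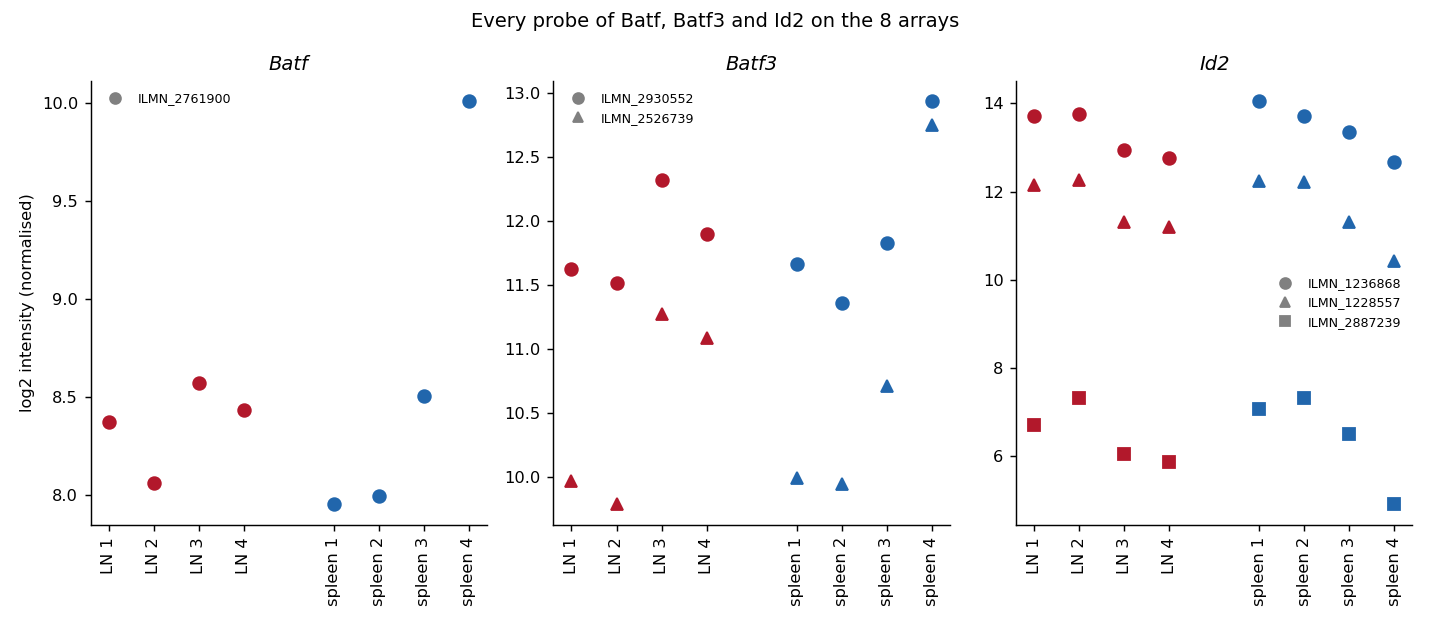
Normalised log2 intensity (vertical axis) of every probe of Batf, Batf3 and Id2 on LN arrays 1 to 4 and spleen arrays 1 to 4, with 1 symbol shape per probe. The 2 Batf3 probes share their high arrays and the 3 Id2 probes their low ones, and spleen array 4 is highest for Batf and Batf3 (10.01 and 12.94 on the brightest probes) and lowest for Id2 (12.67).

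Genes listed as markers of the cDC1 lineage, which depends on Batf3, went in different directions. The sort gate took CD11b-positive and CD8alpha-negative cells, in which a listed gene such as Itgae need not mark that lineage. Of 13 on the array 6 were tested, 1 was higher, 1 was lower, and the median fold was 0.15. Itgae, which encodes CD103, was the higher one (4.56 ± 0.35, limma adjusted p 2.22e-05, detected on 4 LN and 3 spleen arrays), and Ifi205, also an interferon-induced gene, the lower one (-1.70 ± 0.19, limma adjusted p 0.000202). Irf8, the partner factor of cDC1 development, had 0.05 ± 0.16 (limma adjusted p 0.894). Xcr1, the chemokine receptor that defines cDC1, and Tlr3 were detected on 0 of the 8 arrays, and Clec9a on 2 LN and 3 spleen arrays. Tlr11 (1.05 ± 0.34, limma adjusted p 0.064) was called higher without spleen replicate 4 and with the replicate number as a block (limma adjusted p 0.0281 and 0.0352).

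Id2, the inhibitor of E proteins, was not called on any of its 3 probes. The brightest read 13.72, 13.75, 12.95 and 12.76 in LN and 14.05, 13.71, 13.34 and 12.67 in spleen. The arrays of the first BeadChip lay above those of the second in each group, with means of 13.74 and 12.86 in LN and 13.88 and 13.01 in spleen. This spread left a log2 fold of -0.14 ± 0.32 (limma adjusted p 0.839, 95% interval -0.86 to 0.57), and within the BeadChips the fold was -0.14 and -0.15. The other probes gave 0.19 ± 0.41 and 0.04 ± 0.52 (limma adjusted p 0.849 and 0.979), and the dimmest was undetected on spleen array 4.

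Tcf4, the E protein that Id2 opposes, had a negative fold that was called in some settings. It read 11.34, 11.64, 11.22 and 10.98 in LN and 11.96, 12.005, 11.73 and 11.11 in spleen, and spleen replicate 4 fell among the LN values. In each of the 4 pairs of equal replicate number the LN value was the lower one, by 0.13 to 0.62. With all arrays the log2 fold was -0.41 ± 0.23 (limma adjusted p 0.302, 95% interval -0.92 to 0.11). With the replicate number as a block the fold was -0.41 ± 0.15 and not called (limma adjusted p 0.0952). Without spleen replicate 4 it was -0.60 ± 0.17 and called (limma adjusted p 0.0215), and on the first BeadChip -0.49 and called (limma adjusted p 0.0396), while on the second it was -0.32 and not called. The 2 other Tcf4 probes were detected on 0 arrays.

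Of 14 genes on the array listed as markers of plasmacytoid dendritic cells, which depend on Tcf4, 7 were tested. Of the 7, 5 were lower in LN and 0 higher, with a median fold of -1.40. The sort gate took CD11b-positive cells, in which a listed gene such as Lag3 or Tlr7 need not mark plasmacytoid cells. The count was 3 lower without LN replicate 1, on the second BeadChip alone and with arrays scaled to a common median. It was 4 lower without LN replicate 3 or 4 or spleen replicate 1 or 2. Of the 5, Bst2 (-0.79 ± 0.21, limma adjusted p 0.0318) was called in 3 of the 8 fits that left out 1 array. The largest were Lag3, an inhibitory receptor (-2.95 ± 0.37, limma adjusted p 0.000446), the RNA sensor Tlr7 (-2.68 ± 0.37, limma adjusted p 0.000824) and Irf7, also interferon-induced (-2.14 ± 0.33, limma adjusted p 0.00141). The lectin Siglech, which defines these cells, had -0.37 ± 0.32 (limma adjusted p 0.524), Spib, an Ets factor of these cells, had 0.75 ± 0.26 (limma adjusted p 0.0817), and Ccr9 was detected on 0 arrays. The summed signal of the list was 4018 to 4502 in LN and 12347, 13503, 14859 and 33967 on spleen arrays 1 to 4. Most of it came from Irf7 and Lag3, and without them the sum was 1082 to 1465 in LN and 2510, 2568, 2506 and 1859 on spleen arrays 1 to 4. Spleen array 4 was thus highest with these genes and lowest of the spleen arrays without them. The part of these cells in the Tcf4 values was not tested. B cells, which also use Tcf4 and Bcl6, had a marker sum of 477 to 786 in LN and 767 to 1139 in spleen (without Cd79b, the brightest, 298 to 457 in LN and 406 to 794 in spleen), with 1 of 4 tested markers lower (Cd22, -2.13 ± 0.40, limma adjusted p 0.00469, detected on 1 LN array) and Pax5 and Ms4a1 detected on 0 arrays. Cd22 met the filter through its 4 spleen arrays. Its LN mean, 5.32, lay below the lowest detected level of each LN array (5.36 to 5.47). The size of its fold is thus set by background. Blk (-1.26 ± 0.46) made 2 lower with the replicate number as a block.

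Among the other E protein and Id partners 4 of 10 were tested. Cbfa2t3, the ETO2 corepressor that acts with E proteins, was higher in LN (0.69 ± 0.19, limma adjusted p 0.0325), and the call was lost without any 1 LN array or without spleen replicate 1 or 2 (limma adjusted p up to 0.106), or with arrays scaled to a common median. With the replicate number as a block Tcf12, another E protein (0.81 ± 0.33, limma adjusted p 0.144 without the block), was called higher too (limma adjusted p 0.0441). Id3 and Tcf3 were detected on 0 of the 8 arrays.

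Bcl6, the repressor that opposes Prdm1, resembled Tcf4 in its dependence on spleen replicate 4. It read 10.52, 10.73, 10.49 and 9.99 in LN and 11.13, 11.05, 10.80 and 9.86 in spleen. Spleen arrays 1 to 3 lay above every LN array, and spleen array 4 below every LN array. The log2 fold was -0.28 ± 0.29 with all arrays (limma adjusted p 0.619, 95% interval -0.92 to 0.37) and -0.56 ± 0.18 without spleen replicate 4, where it was called (limma adjusted p 0.0461). With Tcf4 this brought the factors called to 4 of 8 without that array, all lower, at a background of 24.1% of all genes called and 11.9% called lower in that setting. The Bcl6 promoter with its 3 TTCNNNGAA palindromes is shown above. Of 6 Bcl6 partners on the array 4 were tested and 0 called in limma (0 also at an unadjusted p under 0.05), with a median fold of -0.02, and Prdm1 was detected on 0 LN and 3 spleen arrays.

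Zbtb46, the zinc finger factor of classical dendritic cells, had close values in the groups. It read 9.57, 9.37, 9.09 and 9.63 in LN and 9.73, 9.79, 9.40 and 9.62 in spleen. The groups overlapped, and the log2 fold was -0.22 ± 0.19 (limma adjusted p 0.534, 95% interval -0.64 to 0.20). Its interval was the narrowest of the 6 uncalled factors, and the fold without spleen replicate 4 was also -0.22. Its 2 other probes failed the filter, with detection on 2 spleen arrays for 1 of them and on 0 arrays for the other. Among 12 tested BTB zinc finger relatives 1 was lower, Zbtb32, a repressor of lymphocyte activation (-1.71 ± 0.27, limma adjusted p 0.00176), and 0 were higher. Zbtb38 (1.13 ± 0.37, limma adjusted p 0.064) was called higher with the replicate number as a block (limma adjusted p 0.0169).

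**Figure D3:**
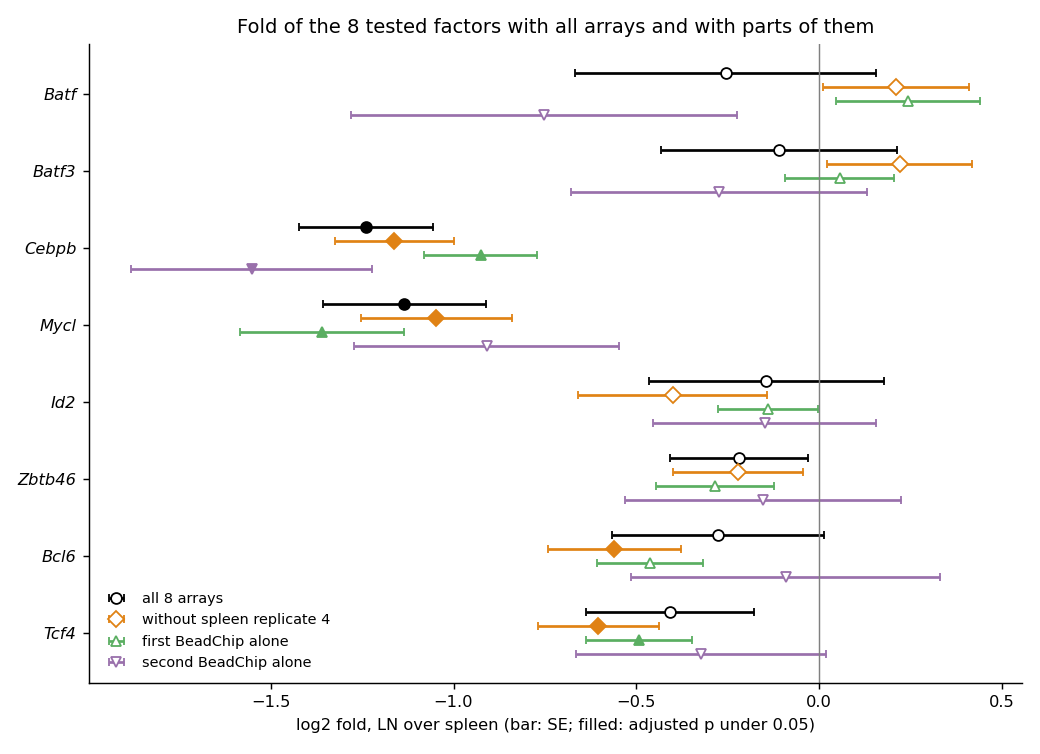
Log2 fold of LN over spleen (horizontal axis) of the 8 tested factors with all 8 arrays, without spleen replicate 4 and within each BeadChip. Bars are SE and filled symbols mark an adjusted p under 0.05. Cebpb and Mycl lie near -1 or below in all 4 settings, from -1.55 to -0.91, Batf and Batf3 change sign without spleen replicate 4, and Bcl6 and Tcf4 become called.

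The wider bZIP family was mostly uncalled. Of 31 other members on the array 21 were tested, 2 were higher in LN and 0 lower, with a median fold of -0.04. With arrays scaled to a common median 0 of the 21 were called, and their median was 0.21. Nfe2l1, a regulator of proteasome genes, was higher (0.82 ± 0.14, limma adjusted p 0.00301), and so was Atf5, a stress-response factor (1.17 ± 0.32, limma adjusted p 0.0329), whose call was lost without LN replicate 1, 2 or 3 or spleen replicate 3 (limma adjusted p up to 0.093). The C/EBP relatives of Cebpb, named for comparison, gave 0.13 ± 0.44 for Cebpd (limma adjusted p 0.893) and 0.68 ± 0.26 for Cebpg (limma adjusted p 0.111, and 0.0231 with the replicate number as a block). Batf2, the interferon-induced relative of Batf, gave -0.67 ± 0.31 (limma adjusted p 0.197). Atf3 (-1.22 ± 0.39, limma adjusted p 0.0627) was called lower without spleen replicate 4 and with the block (limma adjusted p 0.0213 and 0.0324).

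Genes known to respond to C/EBP factors went in different directions. Of 20 on the array 9 were tested, 2 were higher, 1 was lower, and the median fold was -0.13. Lyz2 and Saa3, an acute-phase gene (1.80 ± 0.30, limma adjusted p 0.00217), were higher, and the cytokine gene Tnf was lower (-1.92 ± 0.33, limma adjusted p 0.0029). Il1rn, the interleukin-1 antagonist (-0.71 ± 0.26, limma adjusted p 0.107), made 2 lower without spleen replicate 4 and with the block (limma adjusted p 0.000546 and 0.0464). Il10, Nos2 and Arg1 were detected on 0 arrays.

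In the Myc, Max and Mxd network 9 of 13 genes were tested and 0 called in limma (1 at an unadjusted p under 0.05), with a median fold of -0.02. Max, the dimer partner of Myc and Mycl, was detected on 0 arrays by the probe used. Mxd1, an antagonist of Myc (0.65 ± 0.24, limma adjusted p 0.105), was called higher with the replicate number as a block (limma adjusted p 0.0286). Of 25 ribosome and growth genes that respond to Myc 21 were tested and 0 called in limma (2 at an unadjusted p under 0.05), with a median fold of -0.02. Without spleen replicate 4 the nucleolar genes Nop58, Ppan and Wdr43 were called lower (-0.71, -0.60 and -0.70), without spleen replicate 1 the count was 1 lower, and with the replicate number as a block it was 2, Nop58 and Wdr43.

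**Figure D4:**
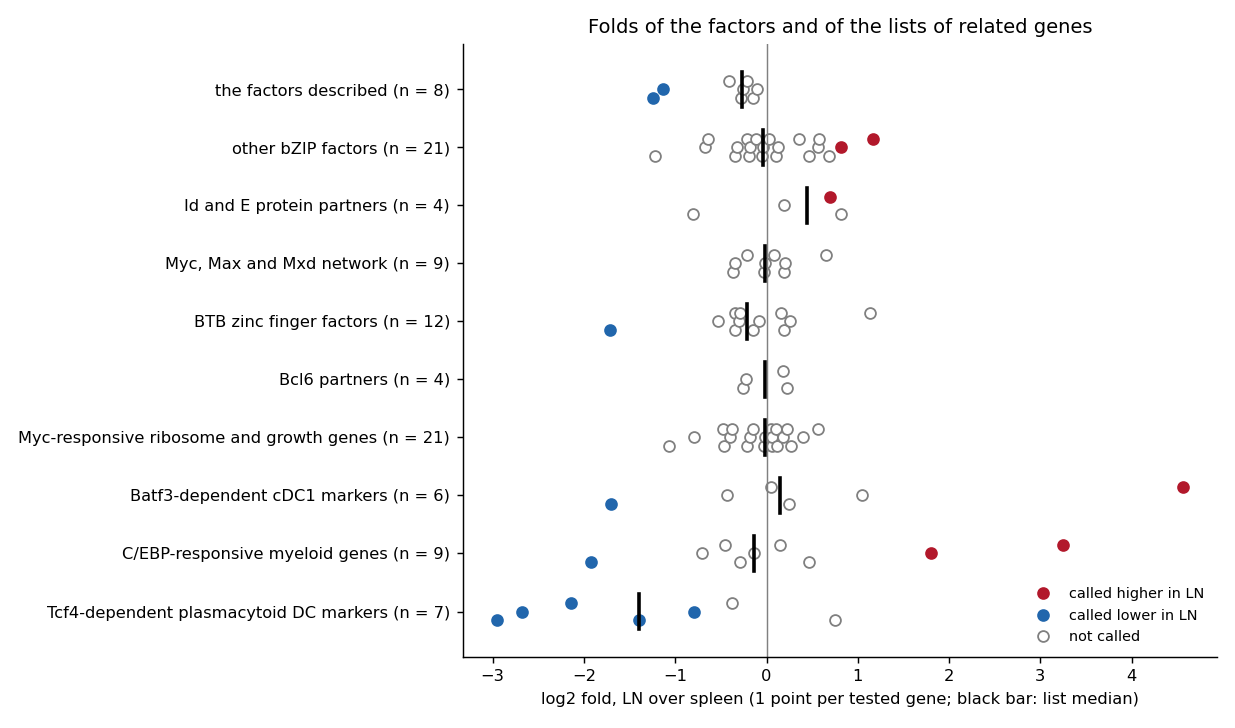
Log2 fold of LN over spleen (horizontal axis) of each tested gene in 10 lists, 1 point per gene, with called genes filled and the list median as a black bar. The factors described have a median of -0.27, the plasmacytoid markers lie lowest at -1.40, and the Myc-responsive genes are centred at -0.02 with 0 called.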

How the data were processed

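RNA from the 8 sorted samples was measured on Illumina BeadChip arrays. Per the file headers, the deposited table holds a linear bead intensity per probe and array, not normalized, and the deposited table also holds a detection p-value for each. A second deposited table, in log2 units, has equal quantiles on all arrays (correlation with the log2 intensity at least 0.999) and served as an alternative. The tool named per the submitters' processing notes is Partek, and its version and role are not stated in the material used. Groups and replicate numbers come from the titles, BeadChips from the array descriptions.

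The neqc function (limma 3.58.1, R 4.3.3) removed background by means of the negative controls that the detection p implies, equalised quantiles and gave log2 values with an offset of 16. Probes detected (p under 0.01) on at least 4 of 8 arrays were kept, the brightest stood for a gene, and lmFit and eBayes with an intensity trend compared LN with spleen, two-sided. A gene table gave 34885 probes 1 symbol, 18 several, and the other probes stay unnamed. One blank line was left out. The number of arrays limits the precision. An "at least" fold sets the brighter group's mean against the lowest signal of a detected probe on each array of the other group, or the probe's own value where higher. Marker sums add the linear normalised signal of each listed gene's brightest probe, undetected ones included, and the sums without the brightest genes were added after seeing the data. The fit was tested on simulated data. Plots used Python 3.11.15, pandas 2.3.3 and matplotlib 3.10.9.

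Deviations from the group means correlated at 0.27 to 0.571 between arrays of equal replicate number in all 4 pairs, which was the criterion for a pairing (0.1). In 3 of the 4 the LN array correlated better with the other number on its BeadChip (0.406, 0.583 and 0.415), so the number and the BeadChip show the same pattern. Per the series text both organs were taken from the same animals. The fit with the number as a block is given where it changed a call among the factors or in a list, and for Tcf4. The text names the 10 factors, the 3 genes most like each called one, and up to 3 called genes per list and direction, and other genes were chosen after their values were seen. The factors and lists were chosen with earlier results of these data known.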

Additional observations from a re-analysis of the deposited data

How the results depend on the processing

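Cebpb and Mycl kept their direction under all settings run, from -1.55 to -0.93 and from -1.36 to -0.91. Their calls were lost with arrays scaled to a common median, where 0 factors were called and 315 genes were lower in LN, and for Mycl on the second BeadChip. That BeadChip alone gave 361 calls (178 higher, 183 lower), 4.37% of all genes, and 1 factor. Array weights, 0.11 for spleen replicate 4, raised the calls to 2698 (1369 higher, 1329 lower), 32.7% of all genes, and 4 factors, all lower. The first BeadChip alone called 3 factors, at a background of 1816 calls or 22.0% of all genes. Leaving out 1 array at a time gave 889 to 1988 called genes, 454 to 1003 higher and 421 to 985 lower, and 2 to 4 factors, where the upper ends are without spleen replicate 4. Against 1285 calls the replicate block gave 1745, kept 2 factors and changed no factor's call, and a BeadChip block gave 1741. Uncalled folds that changed sign were those of Batf, at 0.026 with median scaling, 0.24 on the first BeadChip, 0.30 with array weights and up to 0.21 without 1 array (range -0.48 to 0.21), and Batf3, at 0.055, 0.057, 0.22 and up to 0.22 in the same settings (range -0.30 to 0.22). Id2 changed sign with median scaling (0.046), the mean over probes (0.027), its other probes (0.19 and 0.038), and without 1 array (range -0.40 to 0.059), and Zbtb46 with median scaling (0.0068). The causes were not tested. Levels below the detection limit, as for Cebpa and Myc, are known only as not well above background.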
